A study of Mus musculus with 27 samples.

Results

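R1 is an established mouse embryonic stem cell line, and the comparison described here sets R1 cells after 11 days of differentiation against the same line before differentiation, at day 0. It rests on 6 of the 27 arrays of the series, 3 for each of the 2 groups, chosen by the day and line in their titles. The day 11 cells had been left to form embryoid bodies, floating aggregates that differentiate without added inducers, in serum medium without leukemia inhibitory factor (LIF), the cytokine that holds mouse stem cells undifferentiated. The day 0 cells had been grown with LIF on feeder cells inactivated with mitomycin, so feeder cells were part of that culture. No genetic change, drug or sorting step is given for either group. Nothing in the labels says how the biological replicates were kept apart, so p-values measure the spread between replicate arrays of the series. The other arrays hold R1 at day 5 and a pair of induced pluripotent stem cell lines, H9 made with 3 factors (called 3F) and 19BL made with 4 factors (called 4F), at the same days. The series' title places them in a comparison of induced lines with natural heart formation.

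Mouse embryonic stem cells keep themselves undifferentiated through a circuit of transcription factors around Pou5f1 (Oct4), Sox2 and Nanog. When LIF is withdrawn and the cells aggregate, they pass through a state like the epiblast of the early embryo, form mesoderm and endoderm as the embryo does at gastrulation, and then give blood, vessels, heart muscle, gut-type endoderm and connective tissue side by side. An embryoid body is therefore a mixture, and in such bulk RNA fewer cells of a type and less RNA per cell cannot be told apart.

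All values are RMA log2 signals from Affymetrix arrays, with 1 probe set for each of 18193 genes, so a difference of 1 is a 2-fold difference. A gene was called when its adjusted p in limma was under 0.05 and its change at least 2-fold, and "rose" and "fell" below are used of called genes at day 11 relative to day 0. The error after ± is the standard error of the change, with n = 3 arrays in each group throughout. Between day 11 and day 0, 4294 genes were called, 23.6% of those tested: 2077 rose (11.4%) and 2217 fell (12.2%). When each array was centred on its own median the split was 1644 higher and 2806 lower, because the median change over all genes moved to -0.24, against -0.04 as deposited. For genes with several probe sets the brightest stood for the gene. No named gene had probe sets called in opposite directions, but the change over the probe sets of Tnnt2 ran from 0.21 to 6.01, of Hand2 from 0.18 to 6.13 and of Afp from -0.09 to 8.93. The 3 values of day 11 lay wholly above or below the 3 of day 0 for 9590 genes, 52.7% of those tested.

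**Figure D1:**
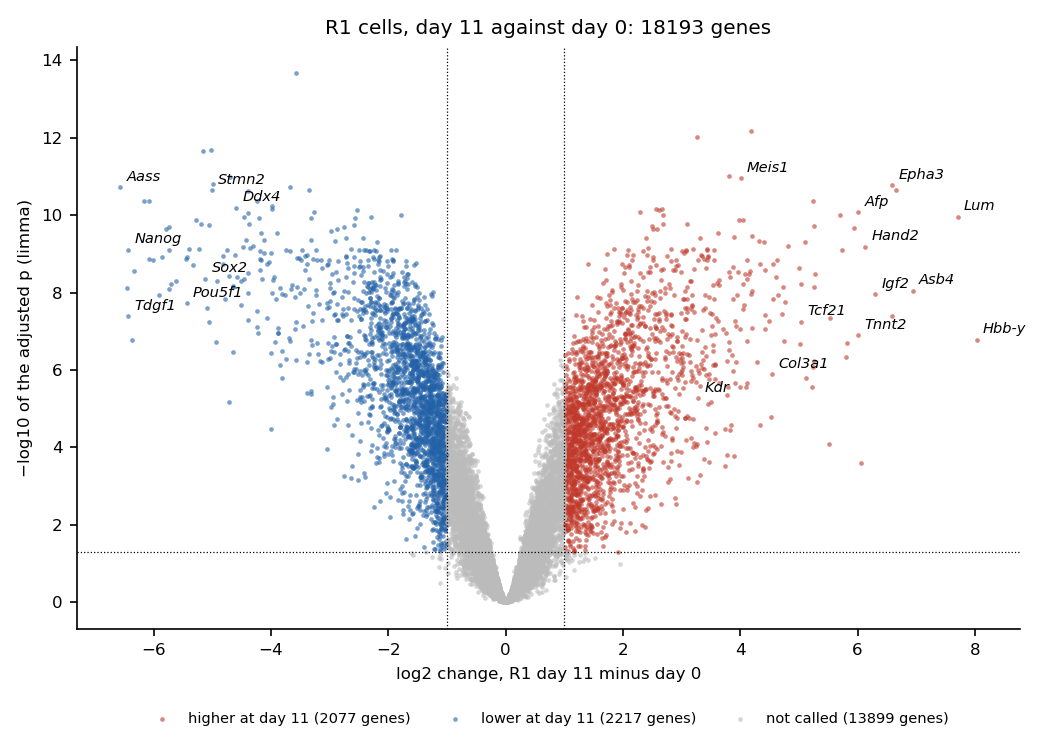
Each point is 1 of 18193 genes, with the log2 change of R1 cells (day 11 minus day 0) on the x axis and the negative log10 of the adjusted p from limma on the y axis. Dotted lines mark a 2-fold change and an adjusted p of 0.05, the 2077 genes in red rose, the 2217 in blue fell, and a few of the genes described in the text are named.

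The replicates of day 11 were unequal. Replicates 1 and 2 correlated at 0.996 over all genes, and replicate 3 at 0.984 and 0.985 with them. The mean log2 signal of 26 sarcomere genes was 8.35, 8.62 and 7.24 in the 3 day 11 arrays, that of 21 macrophage and leukocyte genes 8.80, 9.15 and 6.86, and that of 15 erythroid genes 7.75, 7.46 and 6.06. Replicate 3 was thus lowest for heart muscle, blood and immune genes, while for 29 genes of the connective tissue matrix it was highest, at 9.94, 10.17 and 11.02. At day 0, replicate 1 correlated at 0.986 and 0.984 with the other two, which correlated at 0.994. An index of RNA quality, the signal at the 3' end of control transcripts minus that at their 5' end, was 1.94 ± 0.21 at day 11 and 1.45 ± 0.26 at day 0 (SD, n = 3), and its part in the results was not tested beyond a fit that holds it as a covariate. Of the 4294 calls, 3362 (78.3%) were made in the same direction without each of the 6 arrays in turn.

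Markers of the undifferentiated state set the day 0 arrays apart, which fits their labels. Nanog, a factor of the ground state of pluripotency, had log2 signals of 6.67, 7.03 and 6.08 in the day 11 arrays, against 13.59, 12.97 and 12.52 in the day 0 arrays. The change was -6.43 ± 0.48 (adjusted p = 7.69e-10). The groups did not overlap, which was a condition for the largest falls, Nanog among them. Pou5f1 had 8.09, 7.81 and 6.14 at day 11 and 12.79, 12.98 and 12.57 at day 0, a change of -5.44 ± 0.52 (adjusted p = 1.88e-08), and Sox2 changed by -5.12 ± 0.44 (adjusted p = 4.34e-09). The pluripotency factors were therefore low in every day 11 array and lowest in replicate 3 for Nanog, Pou5f1 and Sox2.

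The loss covered nearly the whole pluripotency lists. Of 14 measured genes of naive pluripotency, the state of cells kept with LIF, 13 fell and 0 rose, with a median change of -3.05, and of 15 core and general pluripotency genes all 15 fell, with a median of -4.46. Nr0b1, an orphan nuclear receptor of the naive circuit, changed by -6.33 ± 0.53, Zfp42 (Rex1), a zinc finger marker of naive cells, by -6.01 ± 0.47, and Tfcp2l1, a factor downstream of LIF, by -4.64 ± 0.41. Tdgf1 (Cripto), a co-receptor of Nodal, had 8.52, 8.04 and 6.49 at day 11 and 13.86, 14.26 and 14.24 at day 0, a change of -6.44 ± 0.65. For all 4 genes the highest day 11 array was below the lowest day 0 array, as held for 28.6% of all genes tested. Nr0b1, Zfp42 and Tdgf1 are among the largest falls, which were taken only from genes whose groups did not overlap. Their separation is therefore no separate result. Dppa2, a chromatin-associated factor of early embryos, changed by -5.79 ± 0.40, and Eras, a Ras-like protein of embryonic stem cells, by -6.37 ± 0.71. The 2 Krüppel-like factors fell least among the naive genes named: Klf4 had 9.21, 8.76 and 9.92 at day 11 and 11.93, 10.67 and 10.76 at day 0, a change of -1.83 ± 0.31, and Klf2 changed by -2.15 ± 0.43. Klf2 and Klf4 are also made by endothelial and epithelial cells, and neither passed the test between day 11 and day 5.

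Genes of the primed epiblast, the later pluripotent state, were also low at day 11. Of 10 measured members 7 fell and 1 rose, with a median of -2.14. Otx2, a homeobox factor of the epiblast and forebrain, had 6.13, 6.29 and 4.39 at day 11 and 10.58, 10.76 and 9.62 at day 0 (-4.72 ± 0.69, adjusted p = 6.77e-06). Fgf5, the classical epiblast marker, had 5.65, 5.39 and 4.08 at day 11, 9.09, 8.81 and 9.23 at day 0 and 10.28, 9.51 and 6.75 at day 5. Day 5 replicates 1 and 2 thus lay above every day 0 array and replicate 3 below them, and all day 11 arrays lay below every day 5 array. Fgf15 was higher at day 5, at 10.05, 10.07 and 10.66, than at either end, with 6.50, 6.39 and 5.59 at day 11 and 9.38, 9.46 and 8.34 at day 0. The member that rose was Sfrp2, a secreted Wnt modulator that mesenchyme also makes, by 2.24 ± 0.35.

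Ligands of the Nodal and FGF pathways, which act on the epiblast, were among the genes that fell. Of 11 Nodal pathway genes 5 fell and 2 rose. Among the ligands and their antagonists, Nodal had 9.03, 8.83 and 7.12 at day 11 and 12.61, 12.84 and 12.73 at day 0 (-4.40 ± 0.45), Lefty1 9.06, 9.23 and 8.63 and 13.80, 13.99 and 13.56 (-4.81 ± 0.37), and Lefty2 changed by -5.86 ± 0.45. Foxh1, the partner of Smad proteins in Nodal-driven transcription, changed by -1.39 ± 0.21, whereas Furin, a protease that matures such ligands, rose by 2.20 ± 0.27 and Smad3, a signal transducer, by 1.60 ± 0.31. Of 19 FGF pathway genes 7 fell and 2 rose. Fgf4, the ligand with which stem cells start their own differentiation, changed by -5.71 ± 0.50, its nuclear effector Etv5 by -4.65 ± 0.41, and Spry2, a feedback inhibitor, by -1.76 ± 0.17. Of 16 Notch pathway genes 1 rose and 2 fell, the falls at a share near that of all genes, and those that fell were the ligands Dll1 (-1.96 ± 0.37) and Dll3 (-2.39 ± 0.52).

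Several genes that write or remove DNA methylation in early embryos fell. Dnmt3l, the cofactor of the de novo methyltransferases, had 5.85, 5.53 and 5.86 at day 11 and 12.27, 11.44 and 10.73 at day 0, a change of -5.73 ± 0.43 (adjusted p = 7.67e-10). Dnmt3b, a de novo methyltransferase, changed by -4.17 ± 0.33, Tet1, which oxidises methylcytosine, by -4.50 ± 0.39, and Uhrf1, which guides maintenance methylation to new DNA, by -1.58 ± 0.27. Of the 10 measured genes of this list 6 fell and 1 rose, Mbd2, a methyl-DNA binding protein, by 1.56 ± 0.20. Dnmt1, the maintenance methyltransferase, did not pass, with a change of -0.39. Of 19 Polycomb genes, which encode a silencing machinery of histone modifiers, 7 fell and 3 rose. Those that fell include Eed (-2.43 ± 0.20), Mtf2 (-1.91 ± 0.22), Jarid2 (-1.60 ± 0.26) and Cbx7 (-2.30 ± 0.27), while Phc1 changed by -2.46 ± 0.23 and its paralogue Phc2 by 2.02 ± 0.20, in opposite directions.

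Germ line genes, many of which are active in mouse stem cells, fell in 9 of 19 measured cases and rose in 0. Ddx4 (Vasa), an RNA helicase of germ cells, had 4.78, 4.63 and 4.22 at day 11 and 8.70, 9.39 and 9.32 at day 0 (-4.59 ± 0.28, adjusted p = 6.33e-11). Sycp3, a protein of the meiotic chromosome axis, changed by -5.46 ± 0.43, Tdrd12, of the piRNA pathway, by -5.75 ± 0.39, and Morc1, which helps silence transposons in male germ cells, by -6.45 ± 0.58.

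**Figure D2:**
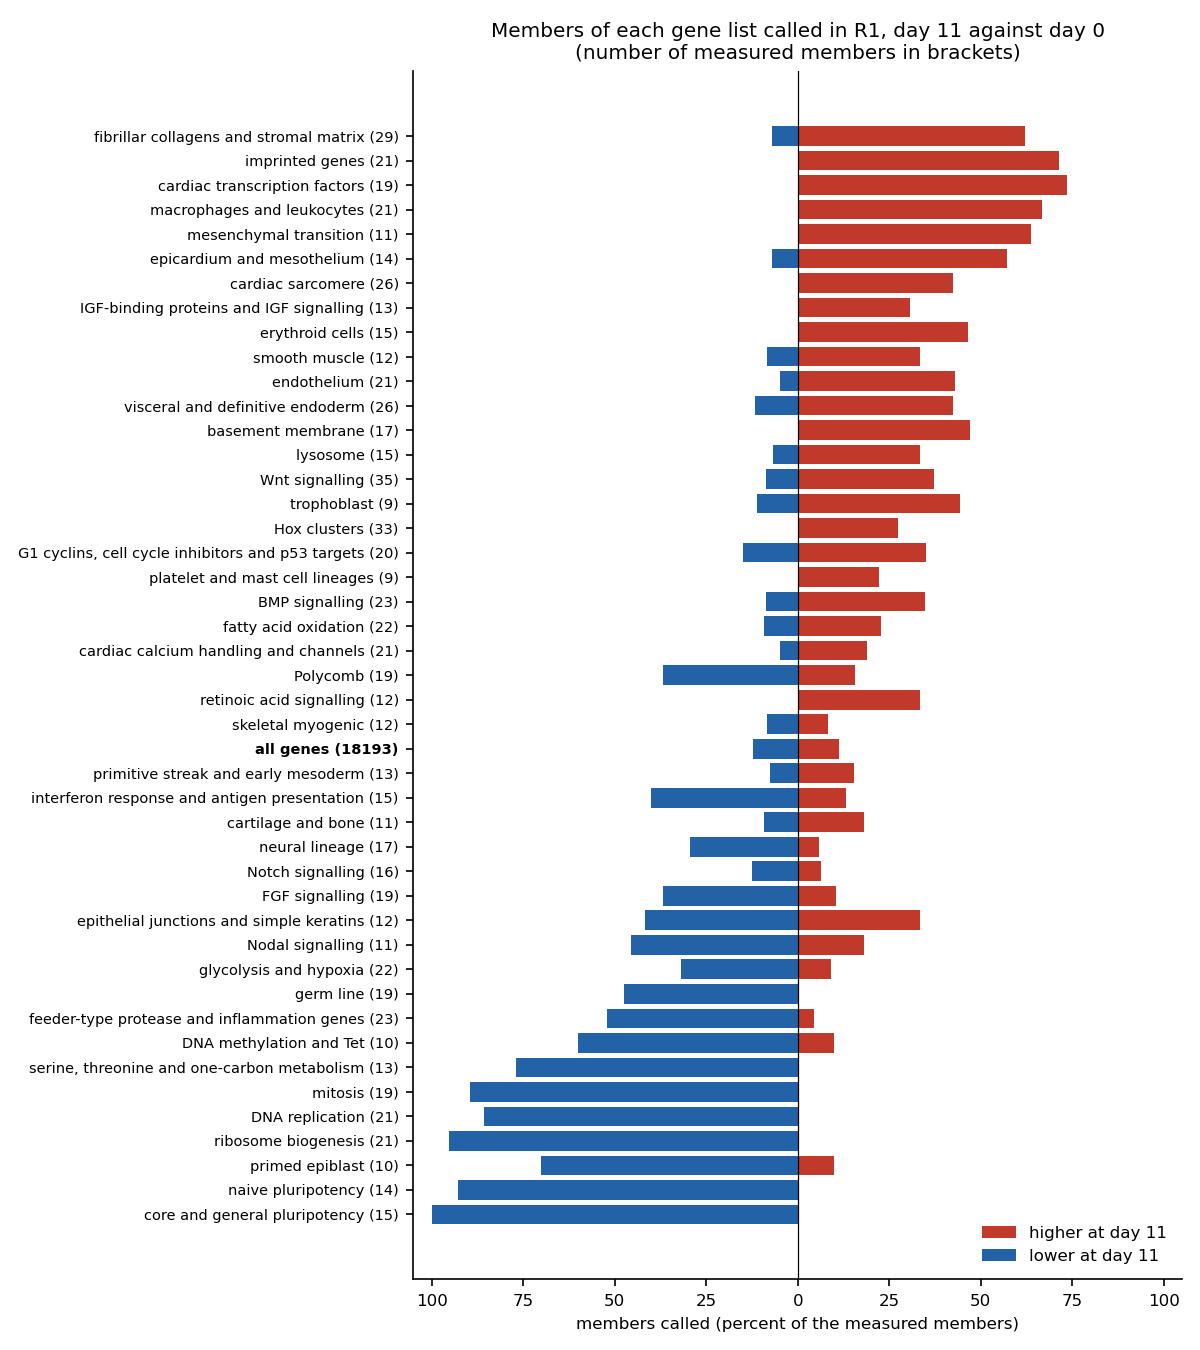
For each gene list, and for all genes in bold type, bars give the percent of the measured members that rose (red, to the right) and fell (blue, to the left) in R1 cells between day 11 and day 0, with the number measured in parentheses. All genes stand at 11.4% and 12.2%, and the lists are ordered by the median change of their members.

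Cell division genes fell as a group. Of 21 measured genes of DNA replication 18 fell and 0 rose, with a median of -1.50, and of 19 genes of mitosis 17 fell and 0 rose, with a median of -1.36. Without day 11 replicate 3, the counts were 14 and 14. With cyclic loess 9 replication genes fell, and with averaged probe sets 10 mitosis genes did. Because these genes move together, their promoters are shown for members in which a script found the letters of the cell cycle elements named next. The E2F-type site is bound by the E2F factors that switch on genes of S phase, and the CHR element by complexes that time genes of mitosis. Sequences are from RefSeq, GRCm38.p6, read toward the gene on its own strand, with the element in capitals.
Mcm6, chr1:128359706-128359865, minus strand: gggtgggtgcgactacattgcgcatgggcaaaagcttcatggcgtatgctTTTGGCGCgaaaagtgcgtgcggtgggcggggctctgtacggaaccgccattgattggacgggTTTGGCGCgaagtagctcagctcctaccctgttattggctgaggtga
Cdc6, chr11:98907963-98908070, plus strand: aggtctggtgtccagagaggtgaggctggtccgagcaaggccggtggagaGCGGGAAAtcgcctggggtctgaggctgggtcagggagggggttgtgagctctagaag
Cdc20, chr4:118437344-118437411, minus strand: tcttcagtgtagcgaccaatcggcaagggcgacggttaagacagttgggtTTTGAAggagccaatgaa
Kif11, chr19:37376313-37376381, plus strand: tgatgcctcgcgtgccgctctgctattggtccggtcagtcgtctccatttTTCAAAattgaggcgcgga
The searched windows run from 250 bases before to 50 bases after each start, on both strands. TTTCCCGC or TTTGGCGC, the E2F-type letters, stood in 8 of 20 windows of replication genes, which cover 18 of the 21 members, and in 1.56% of all 32851 windows. TTTGAA, the CHR letters, stood in 11 of 16 windows of mitosis genes (68.8%), which cover 16 of the 19 members, and in 17.9% of all windows. A match of letters is a description and not a measured binding site.

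Cdc6, which loads the replicative helicase on DNA, had 9.57, 9.29 and 8.84 at day 11 and 11.98, 11.21 and 11.04 at day 0, a change of -2.18 ± 0.23 (adjusted p = 8.96e-08). Mcm6, a subunit of that helicase that was chosen for its promoter after its values were seen, had 11.85, 11.83 and 11.19 and 13.73, 12.86 and 12.84, a change of -1.52 ± 0.22. Orc1, of the origin recognition complex, changed by -2.40 ± 0.23, Mcm10 by -2.32 ± 0.22, and Pcna, the sliding clamp of the polymerases, by -1.76 ± 0.18. All 3 day 11 arrays were below all 3 day 0 arrays for each of these genes, as held for 28.6% of all genes tested. Apart from Mcm6, they were named for being among the largest called changes of their list. Cdc20, the activator that sends cells into anaphase, had 12.66, 12.50 and 11.94 at day 11 and 14.41, 13.92 and 13.74 at day 0 (-1.66 ± 0.19). Kif11, the motor that pushes spindle poles apart, changed by -2.05 ± 0.22, the mitotic kinase Aurka by -2.15 ± 0.22 and Plk1 by -1.65 ± 0.25.

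The regulators of G1, the phase in which cells decide whether to divide, moved in both directions, with 7 of 20 rising and 3 falling. Inhibitors of the cyclin-dependent kinases were among those that rose. Cdkn1c (p57) had 12.46, 12.84 and 12.32 at day 11 and 9.40, 9.82 and 9.52 at day 0 (2.96 ± 0.38), Cdkn1b (p27) changed by 1.80 ± 0.27 and Cdkn2b (p15) by 1.97 ± 0.26. Gas1, a growth arrest protein of the membrane, changed by 4.20 ± 0.45. The cyclins Ccne1 (-1.83 ± 0.25) and Ccnd1 (-2.16 ± 0.30) fell.

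Growth metabolism was also lower. Of 21 genes of ribosome biogenesis 20 fell and 0 rose, with a median of -2.05. Nolc1, a nucleolar phosphoprotein, had 9.38, 9.60 and 9.36 at day 11 and 13.04, 11.82 and 11.44 at day 0, Nop58, of the particles that modify ribosomal RNA, changed by -2.99 ± 0.28, Polr1b, a subunit of RNA polymerase I, by -2.27 ± 0.20, and nucleolin (Ncl) by -1.97 ± 0.23. Of 13 genes listed for serine, threonine and one-carbon metabolism, which feeds nucleotide synthesis and methylation, 10 fell and 0 rose. The 13 include Aass, an enzyme of lysine breakdown and so outside those pathways. Aass, which is mitochondrial, had 4.68, 4.72 and 4.33 at day 11 and 11.01, 11.62 and 10.82 at day 0, a 95.1-fold difference that was the largest fall among all named genes (-6.57 ± 0.37, adjusted p = 1.89e-11). Gldc, of the glycine cleavage system, changed by -3.77 ± 0.35, Shmt1 by -2.97 ± 0.25 and Mthfd1 by -2.20 ± 0.21, both of folate metabolism.

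Of the energy metabolism lists, glycolysis and hypoxia genes fell in 31.8% of cases and fatty acid oxidation genes rose in 22.7%. The opposite calls, 9.09% in each list, were below the shares of all genes (11.4% rose and 12.2% fell). Of 22 genes of glycolysis and hypoxia 7 fell and 2 rose, among them the hexokinase Hk2 (-1.69 ± 0.37), Pfkp (-2.08 ± 0.38), Pdk1, which keeps pyruvate out of mitochondria (-1.52 ± 0.20), and Ldhb (-1.62 ± 0.29) as falls. The 2 members that rose were Vegfa, the vessel growth factor, by 1.71 ± 0.31, and Ndrg1, by 2.25 ± 0.36. The median of this list was -0.69, and its members Pgk1 (-0.82), Ldha (-0.80) and Aldoa (-0.66) did not reach the 2-fold limit. Fatty acid oxidation genes gave 5 rises and 2 falls among 22, with a median of 0.14 that turned to -0.06 with median centring. Lpl, the lipase that releases fatty acids from lipoproteins, had 12.20, 12.14 and 12.16 at day 11 and 9.55, 9.69 and 9.68 at day 0 (2.53 ± 0.23), Acaa2, a thiolase of oxidation, changed by 1.30 ± 0.21, and Acadm, the medium-chain dehydrogenase, by -2.07 ± 0.20. Of 15 lysosome genes 5 rose and 1 fell, with Lamp2, a membrane protein of the lysosome, at 1.63 ± 0.22 and the protease Ctsb at 1.22 ± 0.22, while 3 rose and 0 fell without day 11 replicate 3, and 2 rose with median centring and 8 with cyclic loess.

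Genes of gastrulation mesoderm were mostly lower at day 11 than at day 5. Mesp1, which marks the first heart-forming mesoderm, had 7.81, 7.84 and 7.63 at day 11 and 7.67, 7.54 and 7.45 at day 0, a change of 0.21 ± 0.71 that did not pass (adjusted p = 0.849), with 12.11, 11.44 and 9.46 at day 5 between them. Eomes, a T-box factor of the primitive streak, had 7.37, 7.51 and 5.48 at day 11, 9.62, 8.80 and 10.21 at day 0 and 12.80, 12.25 and 10.09 at day 5, so the day 11 arrays lay below both. Of 13 measured genes of this list 2 rose and 1 fell between day 11 and day 0, and 0 rose and 9 fell between day 11 and day 5, where 7.1% and 4.53% of all genes rose and fell. These comparisons share the day 11 arrays. The 2 members that rose from day 0 were receptors, and neither was called higher at day 11 than at day 5. Pdgfra, the receptor of platelet-derived growth factor, had 11.83, 11.74 and 12.08 at day 11 and 8.18, 6.88 and 7.03 at day 0 (4.52 ± 0.71). Aplnr, the apelin receptor, had 10.78, 10.34 and 9.83 and 5.31, 4.27 and 4.86 (5.50 ± 1.0).

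Transcription factors of the heart rose in 14 of 19 measured cases and fell in 0, with a median change of 2.0. Hand2, a factor of the second heart field and of other mesoderm, had 11.64, 11.78 and 11.72 at day 11 and 5.42, 5.55 and 5.78 at day 0, a 69.9-fold difference (6.13 ± 0.45, adjusted p = 6.49e-10). Tbx20, a T-box factor of the myocardium, had 10.25, 9.94 and 11.08 and 4.84, 4.52 and 4.45 (5.82 ± 0.66), and Gata6 changed by 5.11 ± 0.37. Tbx20 and Hand2 had much of that difference at day 5 already, when Tbx20 stood at 9.60, 9.65 and 10.60 and Hand2 at 10.05, 9.86 and 10.31. Mef2c, which drives muscle genes, had 9.06, 9.32 and 8.43 at day 11, 5.94, 5.81 and 6.03 at day 0 and 7.14, 6.82 and 7.11 at day 5, so most of its change of 3.01 ± 0.32 came later. Gata4 changed by 2.27 ± 0.41, Meis1 by 4.01 ± 0.21, Hand1 by 1.81 ± 0.32 and Isl1, of the second heart field, by 1.72 ± 0.37. Nkx2-5 and Tbx5, factors of the first heart cells, did not reach the 2-fold limit: Nkx2-5 had 7.21, 7.33 and 6.96 at day 11 and 6.82, 6.74 and 6.85 at day 0 (0.37 ± 0.25, adjusted p = 0.251), and Tbx5 changed by 0.52 ± 0.15 (adjusted p = 0.00764). Most of these factors are also used outside the heart, and their counts do not separate the tissues.

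**Figure D3:**
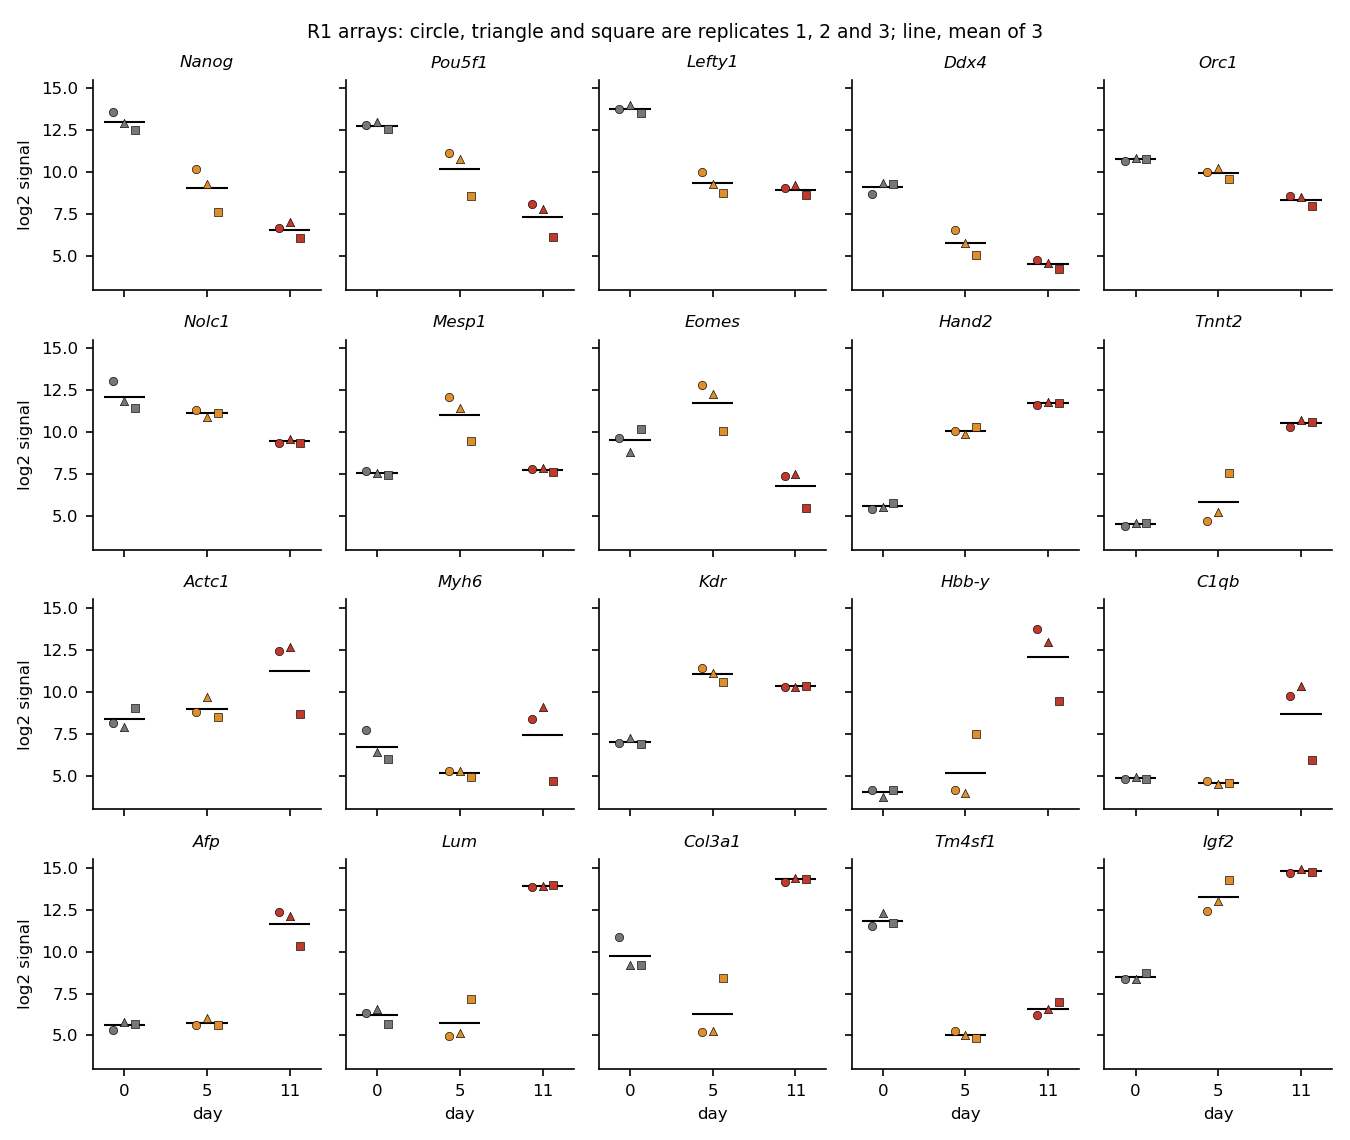
Each panel shows 1 gene, with the day on the x axis, the log2 signal on the y axis, a circle, triangle and square for replicates 1, 2 and 3 of R1 at each day and a line for their mean. Nanog stands between 6.08 and 7.03 at day 11 and between 12.52 and 13.59 at day 0, and Actc1, Myh6, Hbb-y and C1qb have a square far below the other day 11 arrays.

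The sarcomere is the contractile unit of muscle. Of 26 measured genes 11 rose and 0 fell, with a median of 0.90. The count was 7 with only the arrays compared, 9 after adjustment for the RNA quality index, and 9 to 14 without single arrays, the highest being without day 11 replicate 3. Promoters of 3 members are shown because they hold a CArG box, the site that serum response factor binds in muscle genes, in capitals (RefSeq, GRCm38.p6, read toward the gene on its own strand).
Actc1, chr2:114052876-114052972, minus strand: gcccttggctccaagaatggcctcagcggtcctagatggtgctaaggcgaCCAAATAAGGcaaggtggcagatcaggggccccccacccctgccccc
Myl7, chr11:5898784-5898893, minus strand: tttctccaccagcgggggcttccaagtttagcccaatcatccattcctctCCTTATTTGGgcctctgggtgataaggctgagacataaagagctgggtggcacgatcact
Myom1, chr17:71019408-71019517, plus strand: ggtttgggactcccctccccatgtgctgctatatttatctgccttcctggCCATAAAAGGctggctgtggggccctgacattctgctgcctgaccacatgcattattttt
The box stood in 8 of 33 windows of sarcomere genes (24.2%), in 7 of 24 genes, and in 1.63% of all windows searched. In smooth muscle genes, which the same factor serves, it stood in 1 of 10 windows.

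Actc1, cardiac actin, had 12.42, 12.68 and 8.68 in the day 11 arrays, against 8.16, 7.89 and 9.01 at day 0 (2.91 ± 0.76, adjusted p = 0.00284). Replicates 1 and 2 were well above every day 0 array, and replicate 3 lay inside the range of day 0. Without replicate 3 the change was 4.20 (adjusted p = 7.02e-06). Myl7, the atrial regulatory light chain, showed the same split, with 10.55, 10.90 and 6.64 at day 11 and 6.94, 7.16 and 6.99 at day 0 (2.33 ± 0.72, adjusted p = 0.00985). Its call was lost without day 11 replicate 1 or 2, when the change was 1.74 (adjusted p = 0.0752) or 1.56 (adjusted p = 0.0941). Adjusted for the RNA quality index it was 0.97 (adjusted p = 0.302). Myom1, which links myosin filaments, went the other way among the replicates, with 8.03, 8.51 and 9.22 at day 11 and 6.02, 4.97 and 5.35 at day 0 (3.14 ± 0.35).

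Of the thin filament, 3 troponin genes were high in all 3 day 11 arrays, unlike Actc1. Tnnt2, cardiac troponin T, had 10.27, 10.72 and 10.62 at day 11, 4.43, 4.57 and 4.60 at day 0 and 4.73, 5.24 and 7.57 at day 5, and its change from day 0 was 6.01 ± 0.66, or 64.3-fold (adjusted p = 1.23e-07). Tnni1, the troponin I of slow and embryonic muscle, had 11.43, 11.98 and 10.80 and 6.60, 6.98 and 6.35 (4.76 ± 0.45), and Tnnc1, troponin C, 10.55, 11.10 and 9.27 and 6.15, 6.97 and 6.46 (3.78 ± 0.52). None of these 3 had a day 11 array within the range of day 0, and 24.1% of all genes tested lay wholly higher at day 11. For Tnnt2, one of the largest rises, a lack of overlap was a condition of being named. Tnni3, cardiac troponin I, did not pass, with a change of 0.03, or 0.57 (adjusted p = 0.0945) without replicate 3. Tpm1 and Tpm2, also of the thin filament, changed by 0.90 and 0.91 and did not pass either. Thick filament genes depended on the replicate. Myh6, the myosin heavy chain of adult mouse heart, had 8.40, 9.11 and 4.68 at day 11 and 7.75, 6.39 and 5.99 at day 0, and its change of 0.69 ± 0.72 did not pass (adjusted p = 0.482), while it was 2.05 (adjusted p = 0.00198) without replicate 3. Myh7, the embryonic ventricular chain, had 8.09, 8.23 and 5.90 and 5.72, 6.04 and 5.82 (1.55 ± 0.40, adjusted p = 0.00255), and 1.02 (adjusted p = 0.0699) after adjustment for the RNA quality index. Myl2, the ventricular light chain, had 8.21, 8.21 and 4.52 and 4.86, 5.12 and 4.80 (2.06 ± 0.68, adjusted p = 0.0156), with replicate 3 below every day 0 array, and its call was lost without day 11 replicate 1 (1.44, adjusted p = 0.115) or 2 (1.44, adjusted p = 0.117), and after adjustment for the RNA quality index it was 1.03 (adjusted p = 0.282). Myl4, the atrial essential chain, changed by 2.53 ± 0.48.

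Genes of calcium handling, channels, natriuretic peptides and energy supply of mature heart muscle gave 4 rises and 1 fall among 21, with a median of 0.01, so their share was near that of all genes. Corin, the protease that activates natriuretic peptides, had 6.18, 7.19 and 8.05 at day 11 and 3.91, 3.79 and 3.85 at day 0 (3.29 ± 0.42), and Fhl2, a scaffold of the sarcomere, changed by 1.62 ± 0.27. Nppa, the atrial peptide, had 6.17, 6.06 and 5.98 and 5.55, 5.29 and 5.31, a change of 0.69 ± 0.13 below the 2-fold limit. Cox7a1, the muscle form of a respiratory chain subunit, fell, with a change of -1.65 ± 0.42.

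The smooth muscle markers Acta2 and Tagln were mostly higher at both ends of the course than at day 5. Acta2, smooth muscle actin, had 14.64, 14.87 and 14.82 at day 11 and 14.78, 13.86 and 14.11 at day 0, a change of 0.53 ± 0.60 that did not pass (adjusted p = 0.524), with 9.55, 10.78 and 13.40 at day 5. Tagln, an actin-binding protein of the same cells, had 13.14, 13.56 and 13.54 at day 11, 12.50, 12.37 and 12.82 at day 0 and 9.17, 10.57 and 10.44 at day 5 and did not pass either (adjusted p = 0.0725), although it was called with cyclic loess (1.29) and quantile normalization (1.31), and Acta2 with averaged probe sets (1.01). Both genes are also made by fibroblasts, of which feeder cells are made. Of 12 members 4 rose and 1 fell between day 11 and day 0, with 2 rising under median centring or without day 0 replicate 2 or day 11 replicate 3, while 8 rose after adjustment for the RNA quality index. Itga8, an integrin of contractile cells, had 10.24, 10.29 and 10.85 and 8.03, 6.90 and 7.95 (2.84 ± 0.50). Cnn1, the member that fell, changed by -1.09 and was not called without day 11 replicate 3 (-0.95).

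Epicardial and mesothelial genes, those of the outer sheet of the heart and other organs, gave 8 rises and 1 fall among 14, with a median of 1.47. Upk3b, a mesothelial membrane protein, had 9.73, 10.51 and 8.49 at day 11, 5.28, 5.10 and 5.09 at day 0 and 4.84, 4.99 and 5.41 at day 5, so it was high in the day 11 arrays alone of these 9. Its change was 4.42 ± 0.36 (adjusted p = 2.57e-09). Wt1, the zinc finger factor of epicardium and kidney, had 8.23, 8.36 and 8.95 and 6.01, 6.13 and 5.52 (2.63 ± 0.24), Tcf21, a factor of epicardium and fibroblasts, 10.21, 10.84 and 8.09 and 4.64, 4.67 and 4.70 (5.04 ± 0.52), and Bnc1 changed by 4.75 ± 0.53. Replicate 3 was lowest of the day 11 arrays for Upk3b, Tcf21 and Bnc1 and highest for Wt1.

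Of 21 endothelial genes 9 rose and 1 fell, with a median of 0.73. Kdr, the main receptor of vascular growth factor, had 10.30, 10.29 and 10.37 at day 11, 6.97, 7.24 and 6.89 at day 0 and 11.44, 11.12 and 10.61 at day 5, so it was already high at day 5, when it also marks mesoderm (3.29 ± 0.47 from day 0 to day 11). Cdh5, the cadherin of vessel walls, had 7.05, 6.23 and 6.54 at day 11 and 4.80, 4.98 and 5.01 at day 0 (1.67 ± 0.31). Cldn5, of tight junctions, changed by 2.06 ± 0.38, Cd34, of vessels and blood progenitors, by 2.73 ± 0.41, and Sox17, which endoderm also makes, by 4.65 ± 0.43.

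Embryonic globin genes were higher in every day 11 array than at day 0, but unequally. Hbb-y, an embryonic beta globin, had 13.73, 12.97 and 9.44 at day 11 and 4.18, 3.72 and 4.15 at day 0, and its change of 8.03 ± 0.89 (adjusted p = 1.63e-07) was the largest rise of all named genes. Hbb-bh1, another embryonic globin, had 13.87, 13.19 and 8.37 and 5.60, 5.63 and 6.04 (6.06 ± 1.22, adjusted p = 0.000257), and Hba-x, the embryonic alpha-type globin, changed by 3.0 ± 0.57. Replicate 3 was the lowest day 11 array for all 3 globins and still above every day 0 array. All day 11 arrays lay above all day 0 arrays for 24.1% of the genes tested. Hbb-y and Hbb-bh1 are among the largest rises, which were taken only from genes whose groups did not overlap. Their separation is therefore no separate result. Globin genes are near-identical copies, and their probe sets may not separate them fully. Of 15 erythroid genes 7 rose and 0 fell, with 4 rising without day 11 replicate 1 or 2 and 8 without replicate 3.

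Macrophage and leukocyte genes rose in 14 of 21 measured cases and fell in 0, with a median of 1.89. C1qb, a chain of complement C1q that tissue macrophages make, had 9.75, 10.32 and 5.93 at day 11 and 4.79, 4.90 and 4.83 at day 0 (3.83 ± 0.65, adjusted p = 3.59e-05). Adgre1, the F4/80 antigen of macrophages, had 9.74, 9.40 and 8.83 and 6.21, 6.02 and 6.46 (3.09 ± 0.30), and Ptprc (CD45), the common leukocyte antigen, 8.22, 8.79 and 5.95 and 4.70, 4.73 and 4.70 (2.94 ± 0.45). None of these 3 was as high at day 5, where C1qb had 4.70, 4.52 and 4.56. Cd14, a receptor for bacterial lipid, changed by 2.75 ± 0.37, and F13a1 by 2.71 ± 0.47. Of 9 platelet and mast cell genes 2 rose, Pf4 (3.74 ± 0.63) and Itga2b (1.60 ± 0.27).

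Endoderm genes rose in 11 and fell in 3 of 26 cases, with a median of 0.70. Afp, alpha-fetoprotein of yolk sac and liver, had 12.37, 12.10 and 10.36 at day 11, 5.31, 5.80 and 5.67 at day 0 and 5.62, 6.07 and 5.60 at day 5 (6.01 ± 0.38 from day 0, adjusted p = 8.45e-11). Ttr, a carrier of thyroid hormone made by the same tissues, had 11.93, 10.45 and 8.62 and 4.88, 3.88 and 4.83 at day 11 and day 0 and 9.11, 9.55 and 10.27 at day 5, so it had risen earlier than Afp. Rbp4, a retinol carrier, changed by 3.77 ± 0.46, and Dab2, an endocytic adaptor of extraembryonic endoderm, by 3.16 ± 0.27. Rhox5, a homeobox gene of extraembryonic tissue and stem cells, had 11.90, 11.87 and 12.32 at day 11 and 13.77, 13.94 and 13.74 at day 0 (-1.79 ± 0.21). Trophoblast genes gave 4 rises and 1 fall among 9, with Plac1, a placental gene, at 5.24 ± 0.66 and Tfap2c, a factor of trophoblast and germ cells, at -2.69 ± 0.31.

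Most genes of neurons, skeletal muscle, cartilage and bone were not called, as held for all genes (13899 of 18193). Of 17 neural genes 1 rose and 5 fell, or 3 fell when probe sets were averaged. The 5 falls are 29.4% of the list, where 12.2% of all genes fell. Among those that fell, Stmn2, a microtubule regulator of neurons, had 7.15, 7.13 and 5.93 at day 11 and 12.09, 11.71 and 11.44 at day 0 (-5.01 ± 0.29), and Nefl, a neurofilament subunit, changed by -3.82 ± 0.45. The adhesion molecule Ncam1, which mesenchyme also makes, rose by 3.01 ± 0.38. Among 12 skeletal muscle genes 1 rose and 1 fell (8.33% each, where 11.4% and 12.2% of all genes did). Of 11 genes of cartilage and bone 2 rose, both collagens, Col9a1 (5.03 ± 0.44) and Col11a1 (4.41 ± 0.44), and 1 fell.

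**Figure D4:**
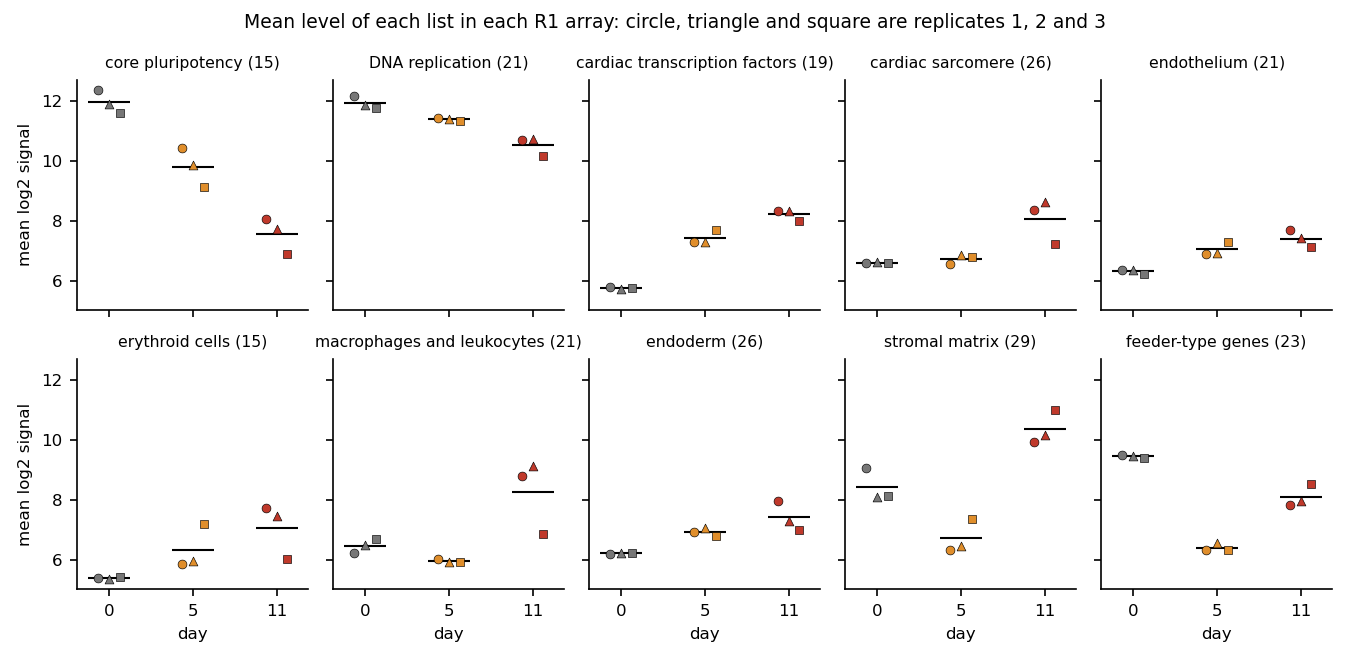
Each panel shows the mean log2 signal of the measured members of 1 list (number in parentheses) in each R1 array, with the day on the x axis and a circle, triangle and square for replicates 1, 2 and 3. Stromal matrix genes are at 9.94 to 11.02 at day 11 and 8.10 to 9.08 at day 0, with 6.35 to 7.38 at day 5, and feeder-type genes at 7.85 to 8.55 at day 11 and 9.41 to 9.50 at day 0, with 6.33 to 6.56 at day 5.

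Connective tissue genes made up one of the groups that rose. Of 29 measured genes of fibrillar collagen and stromal matrix 18 rose and 2 fell, with a median of 2.30. Lum, lumican, a proteoglycan that spaces collagen fibrils, had 13.83, 13.93 and 13.95 at day 11 and 6.35, 6.56 and 5.68 at day 0, a 209.0-fold difference (7.71 ± 0.50, adjusted p = 1.08e-10). Col3a1, type III collagen, had 14.16, 14.38 and 14.33 and 10.85, 9.18 and 9.23 (4.54 ± 0.59), Postn, periostin, 13.38, 13.60 and 13.55 and 9.99, 8.76 and 8.79 (4.33 ± 0.71), and Dcn, decorin, 11.72, 12.27 and 12.17 and 7.88, 8.28 and 8.21 (3.93 ± 0.41). For all 4 the day 11 arrays lay close together and above every day 0 array, as the latter held for 24.1% of all genes tested. For Lum, one of the largest rises, this separation was a condition of being named. Col1a1, type I collagen, changed by 3.84 ± 0.63 and Ogn, a small proteoglycan, by 5.25 ± 0.64. Day 0 was not the low point for many of these genes: between day 11 and day 5, 25 of the 29 rose, and Col3a1 had 5.23, 5.26 and 8.40 at day 5.

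Genes typical of cultured fibroblasts used as feeders, proteases and inflammatory factors, moved the other way. Of 23 measured members 1 rose and 12 fell, with a median of -1.21. After adjustment for the RNA quality index 2 rose and 8 fell, with a median of -0.36. Tm4sf1, a membrane protein of fibroblasts and endothelium, had 6.21, 6.60 and 6.97 at day 11, 11.51, 12.28 and 11.69 at day 0 and 5.28, 5.0 and 4.83 at day 5 (-5.23 ± 0.39 from day 0 to day 11). Mmp3, a matrix protease, changed by -4.22 ± 0.46, the cytokine Il6 by -3.31 ± 0.37, Thy1, a surface antigen of fibroblasts and lymphocytes, by -3.27 ± 0.21, and Timp1, an inhibitor of matrix proteases, by -1.82 ± 0.31. The mean level of the list was 7.85 to 8.55 at day 11, 9.41 to 9.50 at day 0 and 6.33 to 6.56 at day 5. How much of a day 0 value, in this list or in the stromal and smooth muscle lists, came from feeder cells was not tested.

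Basement membrane genes gave 8 rises and 0 falls among 17, and 5 rises without day 11 replicate 3. Col4a1, a chain of type IV collagen, had 12.78, 12.17 and 12.96 at day 11 and 10.13, 8.96 and 9.75 at day 0 (3.03 ± 0.42), and Sparc, a collagen-binding protein, 13.91, 14.34 and 14.06 and 11.71, 11.09 and 11.35 (2.72 ± 0.33). Of 11 genes of mesenchymal transition 7 rose and 0 fell: Snai2, a repressor of epithelial genes, had 12.71, 12.52 and 12.54 and 10.17, 9.16 and 9.25 (3.07 ± 0.49), Cdh2, N-cadherin, 10.27, 10.07 and 10.67 and 8.0, 7.69 and 8.12 (2.40 ± 0.47), and Twist2 changed by 2.84 ± 0.50. Vim (0.34) and Fn1 (0.75), of the mesenchymal list, did not pass. Epithelial genes split by kind. Cdh1, E-cadherin, had 9.78, 9.16 and 8.85 at day 11 and 12.04, 11.66 and 11.68 at day 0 (-2.53 ± 0.37), and Epcam changed by -3.35 ± 0.40 and the splicing factor Esrp1 by -2.94 ± 0.44, whereas the simple keratins Krt8, Krt18 and Krt19 changed by 2.33 ± 0.55, 2.21 ± 0.50 and 2.20 ± 0.43. In all, 5 of 12 epithelial genes fell and 4 rose.

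Among the signalling pathways that pattern mesoderm, BMP genes rose in 8 and fell in 2 of 23 cases, with a median of 0.16 that was -0.04 with median centring. Of the ligands, Bmp2 had 8.86, 8.08 and 7.13 at day 11 and 4.94, 5.04 and 5.38 at day 0 (2.90 ± 0.49) and Bmp5 changed by 3.09 ± 0.49, both with higher levels at day 5, where Bmp2 had 9.88, 9.70 and 10.21. The receptor Bmpr1a changed by 1.28 ± 0.18, the inhibitors Smad6 and Bambi by 2.83 ± 0.56 and 3.03 ± 0.38, and the target Msx1 by 2.38 ± 0.65. Fst, follistatin, which traps activins, fell, with a change of -2.61 ± 0.53.

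Wnt pathway genes rose in 13 and fell in 3 of 35 cases. The ligand Wnt2, of early heart and lung mesoderm, had 10.86, 10.25 and 10.78 at day 11 and 5.48, 6.39 and 5.81 at day 0 (4.74 ± 0.42). The receptors moved in both directions: Fzd1 rose by 3.94 ± 0.36 and Fzd2 by 2.30 ± 0.22, while Fzd5 had 6.43, 6.08 and 6.14 and 10.71, 9.43 and 9.23 (-3.57 ± 0.43). The secreted antagonists Sfrp1 and Dkk2 rose by 3.88 ± 0.32 and 3.34 ± 0.26. Of 12 genes of retinoic acid signalling 4 rose and 0 fell, with a median of 0.0 that was -0.2 with median centring. The receptor Rarb, itself a target of the pathway, had 8.74, 8.60 and 9.13 at day 11 and 4.61, 4.47 and 4.45 at day 0 (4.31 ± 0.31, adjusted p = 4.65e-10). The synthetic enzymes Aldh1a1 and Aldh1a2 changed by 2.04 ± 0.35 and 1.58 ± 0.31. Of the same list, Rarg (-0.60), Crabp2 (-0.50) and Cyp26a1 (0.27) did not pass.

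Of 33 measured Hox genes, which give cells their place along the body axis, 9 rose and 0 fell, and 13 rose after adjustment for the RNA quality index. The 6 with the largest changes were Hoxa9, Hoxd8, Hoxc10, Hoxa11, Hoxa10 and Hoxd10, of the middle and posterior parts of their clusters. Hoxa9 had 9.46, 9.32 and 9.45 at day 11 and 6.53, 6.03 and 6.38 at day 0 (3.10 ± 0.68), Hoxa11 8.36, 8.50 and 9.48 and 6.60, 7.14 and 6.68 (1.97 ± 0.26), Hoxc10 changed by 2.40 ± 0.30, Hoxd8 by 2.42 ± 0.46, Hoxa10 by 1.94 ± 0.39 and Hoxd10 by 1.83 ± 0.31. At day 5 Hoxa9 stood at 4.95, 5.25 and 7.87.

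Imprinted genes, expressed from 1 parental copy and active in embryonic growth, rose in 15 of 21 measured cases and fell in 0, with a median of 2.22. Igf2, the fetal growth factor, had 14.68, 14.91 and 14.74 at day 11, 8.35, 8.36 and 8.72 at day 0 and 12.44, 12.99 and 14.24 at day 5 (6.30 ± 0.58, or 78.9-fold, from day 0 to day 11). Dlk1, a membrane ligand of fetal tissue, had 11.39, 11.80 and 12.70 and 6.51, 6.34 and 6.45 (5.53 ± 0.56), and Plagl1, a zinc finger regulator of other imprinted genes, 14.17, 14.40 and 14.40 and 11.13, 9.05 and 10.34 (4.15 ± 0.35). Both were low at day 5, where Plagl1 had 8.71, 8.20 and 9.04. Peg3, Grb10 and Ndn changed by 2.66 ± 0.44, 2.22 ± 0.31 and 2.30 ± 0.26. The maternally expressed growth inhibitors Grb10 and Cdkn1c and the paternally expressed growth factor Igf2 were all among those that rose. Among 13 IGF-binding and IGF signalling genes 4 rose and 0 fell, including Igfbp4 (2.83 ± 0.30) and Igf1 (1.44 ± 0.28), and 8 rose after adjustment for the RNA quality index.

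Interferon response and antigen presentation genes gave 2 rises and 6 falls among 15. The class I antigens H2-K1 and H2-D1 changed by -1.62 ± 0.31 and -1.41 ± 0.28 and the immunoproteasome subunit Psmb8 by -2.45 ± 0.35, while Ifit1, an antiviral protein, had 7.02, 7.61 and 7.90 at day 11 and 5.02, 5.33 and 4.78 at day 0 (2.47 ± 0.41).

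Some of the largest changes belong to no list. Asb4, a substrate adaptor of a ubiquitin ligase, had 12.40, 12.30 and 11.77 at day 11, 5.50, 5.08 and 5.09 at day 0 and 12.20, 11.69 and 11.04 at day 5 (6.94 ± 0.62 from day 0 to day 11), and Colec11, a collectin, changed by 6.58 ± 0.66. Asb4 was thus close to its final level at day 5. Prss35, a secreted serine protease homologue, had 11.48, 11.62 and 12.49 and 5.37, 4.95 and 5.28 at day 11 and day 0 (6.66 ± 0.38), Epha3, an ephrin receptor, 10.59, 10.93 and 11.34 and 4.62, 4.15 and 4.34 (6.58 ± 0.36), and Tgfbi, a matrix adhesion protein, changed by 5.69 ± 0.36. Epha3 and Prss35 were low at day 5, with 4.28, 4.05 and 4.47 for Epha3. Among the falls, Slc7a3, a carrier of arginine and lysine, had 7.05, 6.96 and 6.25 at day 11 and 13.29, 12.79 and 12.40 at day 0 (-6.08 ± 0.36), Trh, the precursor of thyrotropin-releasing hormone, changed by -6.09 ± 0.48, Slc27a2, a fatty acid transporter, by -5.91 ± 0.54, and Mymx, which later fuses muscle cells, by -5.44 ± 0.42.

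Whether the course of R1 differed from that of the induced lines was tested as the difference between the changes from day 0 to day 11. Both comparisons share the 6 R1 arrays. Against 3F, 272 genes were called (1.5% of those tested): 222 with a higher change in R1 (1.22%) and 50 with a lower one (0.275%), a split of 130 and 91 with median centring and of 133 and 57 with quantile normalization. Without single arrays the count ran from 101 to 1264, so the count against 3F rests on single arrays. Against 4F, 1728 were called (9.5%): 1279 with a higher change in R1 (7.03%) and 449 with a lower one (2.47%). That split was 803 and 780 with median centring, 866 and 723 with cyclic loess, and 870 and 773 with quantile normalization. The index of RNA quality was 2.69 ± 0.23 in 4F at day 11 and 1.31 ± 0.11 in 4F at day 0 (SD, n = 3), a wider step than in R1, and with the index as a covariate 246 genes were called against 4F.

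**Figure D5:**
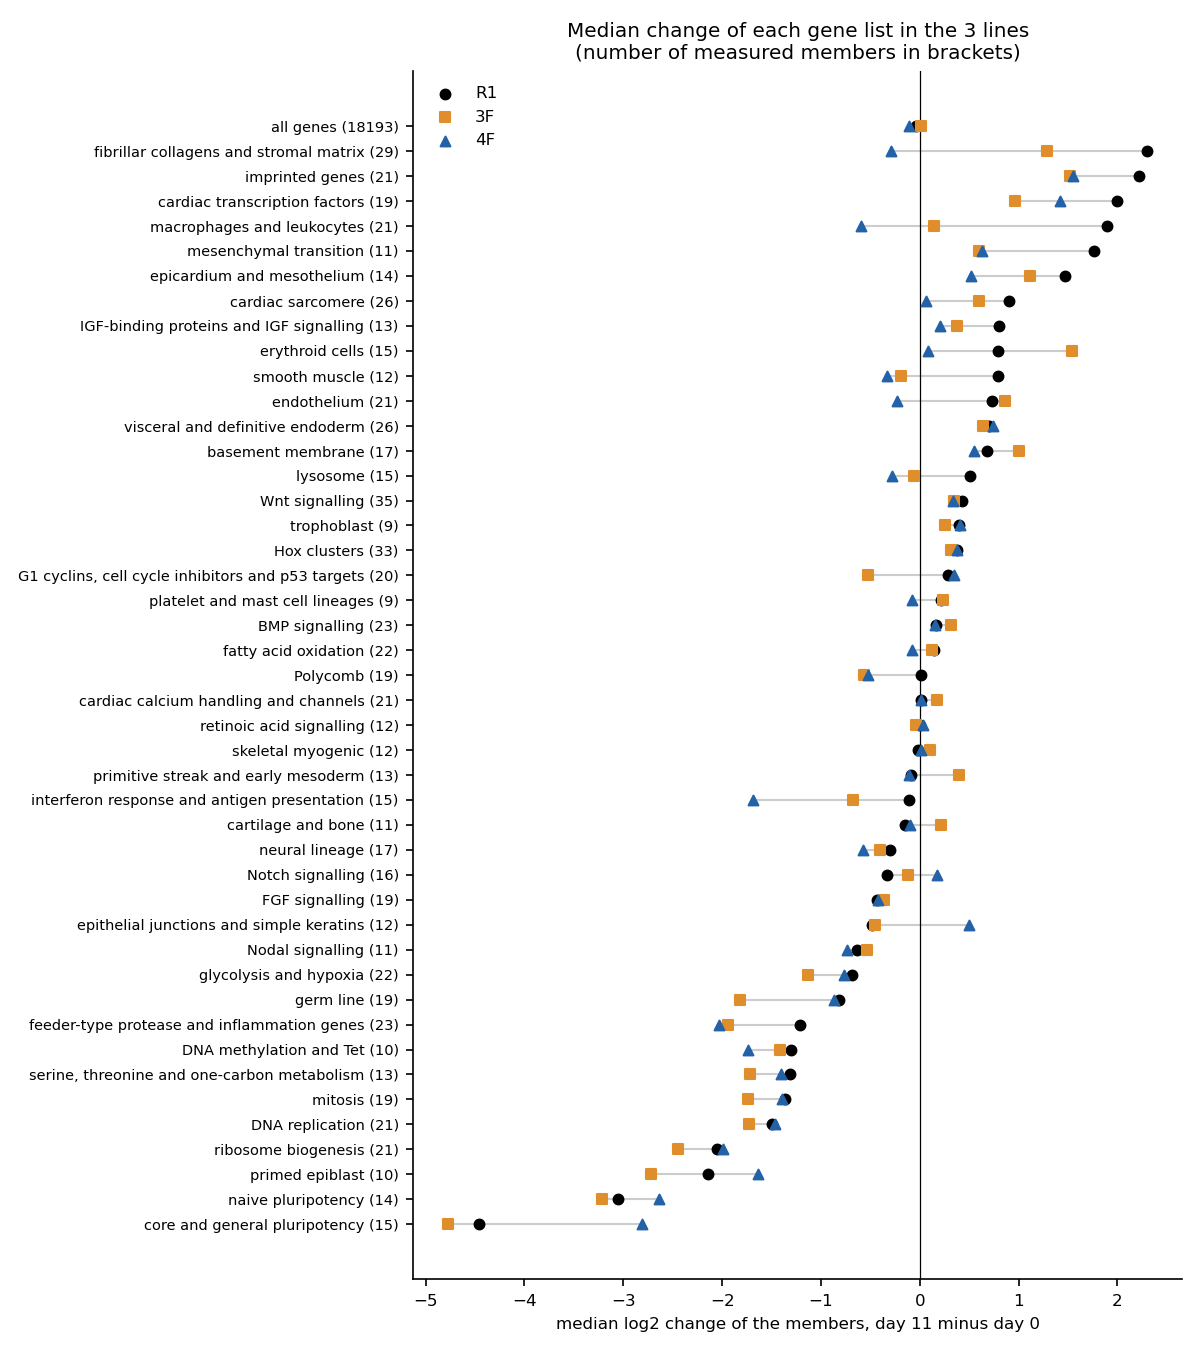
For each gene list, the median log2 change of its members from day 0 to day 11 is shown in R1 (circles), 3F (squares) and 4F (triangles), with all genes set apart. Macrophage genes are at 1.89 in R1, 0.14 in 3F and -0.59 in 4F, and core pluripotency genes at -4.46, -4.77 and -2.81 in the same order.

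Macrophage and leukocyte genes had the most called members of the 44 lists against 3F. Their median change was 1.89 in R1 and 0.14 in 3F, and 7 of 21 rose more in R1 and 0 less, where 1.22% of all genes rose more. The count was 3 without R1 day 11 replicate 1 or 2, 3F day 0 replicate 3 or 3F day 11 replicate 1, and 4 without R1 day 0 replicate 2 or 3F day 0 replicate 1. It was 17 without R1 day 11 replicate 3 and 11 with the index as a covariate. Ptprc changed by 2.94 in R1 and -0.68 in 3F, a difference of 3.62 ± 0.64 (adjusted p = 0.00358), and Adgre1 by 3.09 in R1 with a difference of 2.95 ± 0.43 from 3F (adjusted p = 0.000539). Against 4F, 14 of 21 rose more in R1 and 0 less, and 9 with the index as a covariate.

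The median change of the sarcomere genes was 0.90 in R1, 0.60 in 3F and 0.06 in 4F, with 1 of 26 members rising more in R1 than in 3F and 8 more than in 4F. Tnnt2 changed by 6.01 in R1, 6.08 in 3F and 1.71 in 4F, and the difference from 4F was 4.30 ± 0.93 (adjusted p = 0.0038). For 3F the difference in Tnnt2 was -0.07 ± 0.93 (adjusted p = 0.972), an error too wide to call the changes alike. The count against 4F was 3 with the index as a covariate, 4 without R1 day 11 replicate 2, 5 without 4F day 11 replicate 1 and 14 without R1 day 11 replicate 3.

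Against 4F, the stromal matrix list gave 18 of 29 genes with a higher change in R1 and 0 with a lower one, and 3 with the index as a covariate. The count was 10 without R1 day 11 replicate 3 or 4F day 11 replicate 1, 11 without R1 day 0 replicate 2 or 3 or 4F day 0 replicate 1, and 12 without 4F day 11 replicate 2. Its median change was 2.30 in R1, 1.29 in 3F and -0.29 in 4F. Lum changed by 7.71 in R1 and 2.40 in 4F (difference 5.31 ± 0.70, adjusted p = 4.86e-05). The pluripotency genes fell further in R1 than in 4F in 5 of 15 core cases and 3 of 14 naive cases, and in 0 and 0 with the index as a covariate. For the core genes it was 3 without 4F day 11 replicate 1 or 2. Pou5f1 changed by -5.44 in R1 and -2.81 in 4F (difference -2.62 ± 0.73, adjusted p = 0.0191). The core list had a median change of -4.46 in R1 and -4.77 in 3F. Germ line genes fell further in R1 than in 4F in 7 of 19 cases, 2 with the index as a covariate, with Ddx4 at -4.59 in R1 and -1.62 in 4F (difference -2.97 ± 0.40, adjusted p = 5.51e-05).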

How the data were processed

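Total RNA of R1, 3F and 4F cells at day 0, day 5 and day 11 was measured on 27 Affymetrix mouse arrays, 3 biological replicates in each of 9 groups. Per the labels' protocols, total RNA was column-purified and biotin-labelled cRNA was hybridised. Per the submitters' processing notes, the authors used RMA, and the deposited values are on the log2 scale. Its version is not given in the sources used here. RMA corrects background, normalizes between arrays and summarises probes, so values are relative and the low end is compressed.

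Of 45101 probe sets, 34945 with 1 symbol in the array annotation were used (932 had several, 9160 none, 64 were controls), and 34741 were matched to the gene reference by gene ID, with 0 symbols changed. For each of 18193 genes the probe set of highest mean signal in the 27 arrays was kept. With limma 3.58.1 in R 4.3.3, group means were estimated from the full set of arrays, variances were moderated by empirical Bayes, and Benjamini-Hochberg adjustment ran across the genes tested, separately in 4 comparisons: R1 day 11 against day 0, R1 day 11 against day 5, and the change from day 0 to day 11 in R1 minus that in 3F and in 4F. Genes were called where the adjusted p was below 0.05 and the groups differed 2-fold or more. The fit was tested on simulated data. Arrays have no read depth, and their number limits the precision: between 2 arrays of a group, the log2 difference had an SD of 0.234 to 0.442 at R1 day 11 and 0.295 to 0.483 at R1 day 0.

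Named genes are the 20 largest rises and falls with groups that did not overlap, up to 6 called members and the 3 brightest members of each list, a set of fixed genes, and the 5 largest differences each way between lines, with provisional names passed over. Mcm6 was added for its promoter after its values were seen. For the largest rises and falls, a lack of overlap between groups follows from how they were chosen. The members, the 44 gene lists and the named genes were chosen with earlier results of these data known, so they are descriptions and not independent support. Many lists have members that are not analysed here and are left out of the counts. Among them are T of the primitive streak list and H19 of the imprinted list. Runx2, Bglap and Spp1 of cartilage and bone, and Prl3d1, Prl2c2 and Gcm1 of trophoblast, are others. Promoters of RefSeq genes (GRCm38.p6), 250 bases before to 50 after each start, were searched with Python 3.11.15 on both strands. Alternatives covered scaling, filters on dim genes, choice of probe sets, thresholds, array weights, replicate blocks, single arrays left out and, chosen after seeing the data, adjustment for the RNA quality index and a replicate block fitted to the compared arrays alone.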

Additional observations from a re-analysis of the deposited data

Results flagged for a closer look

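The change from day 0 to day 11 differed between R1 and another line, by the limma test of that difference, most for the following genes. Against 3F, the changes were higher in R1 for 5 genes of blood and immune cells. The chemokine Ppbp changed by -0.46 in R1 and -4.90 in 3F (difference 4.45), Ptprc by 2.94 and -0.68 (difference 3.62), Plek, a platelet and leukocyte protein, by 3.41 and -0.17 (difference 3.57), C1qb by 3.83 and 0.28 (difference 3.54), and Mpeg1, a pore protein of macrophages, by 2.24 and -1.02 (difference 3.26). They were lower in R1 for Dpys, an enzyme of pyrimidine breakdown, at -4.39 in R1 and 0.50 in 3F (difference -4.89), Aass at -6.57 and -1.92 (difference -4.65), Trbv13-2, a T cell receptor segment, at -0.21 and 3.74 (difference -3.95), Fmr1nb at -3.99 and -0.58 (difference -3.41), and Khdc3, of oocytes and early embryos, at -3.59 and -0.52 (difference -3.08). Adjusted p values for these 10 ran from 1.08e-07 to 0.0452. C1qb was not called, at adjusted p values of 0.0607 to 0.129, without R1 day 0 replicate 2 or 3, R1 day 11 replicate 1 or 2, any day 0 replicate of 3F or 3F day 11 replicate 1, nor with median centring (adjusted p = 0.0571). Mpeg1 was not called, at 0.0566 to 0.0826, without R1 day 0 replicate 2, R1 day 11 replicate 1 or 2, 3F day 0 replicate 1 or 3 or 3F day 11 replicate 1.

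Against 4F, the changes were higher in R1 for the antiviral Ifit1, at 2.47 in R1 and -3.81 in 4F (difference 6.28), its fellow interferon-responsive gene Usp18 at 1.56 and -3.60 (difference 5.16), Lum at 7.71 and 2.40 (difference 5.31), Dcn at 3.93 and -1.36 (difference 5.29), and Actg2, a smooth muscle actin, at 2.12 and -3.11 (difference 5.22). They were lower in R1 for Gdap10 at -2.24 and 2.09 (difference -4.32), Tdgf1 at -6.44 and -2.41 (difference -4.02), Rpl39l, a ribosomal protein of germ cells, at -5.09 and -1.14 (difference -3.95), Mael, of the piRNA pathway, at -4.48 and -0.64 (difference -3.84), and Slc15a2, a peptide carrier, at -0.03 and 3.77 (difference -3.80). Adjusted p values for these 10 ran from 1.14e-06 to 0.00548. Adjusted for the RNA quality index, Tdgf1 (-1.28), Actg2 (2.48), Gdap10 (-1.97), Rpl39l (-1.75) and Slc15a2 (-1.40) were not called against 4F, and the other 5 were. The call of the R1 change itself was lost for Actg2 without R1 day 11 replicate 3 (1.75, adjusted p = 0.0548) and for Usp18 without that array (1.47, adjusted p = 0.0554) or R1 day 0 replicate 2 (1.44, adjusted p = 0.0602).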

How the results depend on the processing

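Between R1 day 11 and day 0, median centring, cyclic loess, quantile normalization, the filter on dim genes, averaging of a gene's probe sets, treatment of the variance, array weights, the stricter threshold and the index covariate each left the number of calls within 1.5 times 4294, and without single arrays it ran from 4049 to 4458 (1968 to 2265 higher, 2015 to 2424 lower). Without a minimum fold 8237 genes were called (3915 higher, 4322 lower), and 7011 when all probe sets were tested (3199 and 3812). Against day 5 these counts were 4971 (2465 and 2506) and 3272 (1942 and 1330), and 1897 to 2305 without single arrays (1203 to 1365 higher, 666 to 940 lower). The difference from 3F (272 calls) was the least stable: 130 higher and 91 lower with median centring, 133 higher with quantile normalization, 68 (44 and 24) at an adjusted p under 0.01, 80 lower without a minimum fold, 80 (58 and 22) with only the arrays compared, 778 (639 and 139) with array weights, 728 (622 and 106) with the index covariate and 416 (342 higher) over all probe sets. Without single arrays it ran from 101 to 1264 (72 to 1042 higher, 29 to 222 lower): 1264 without 3F day 11 replicate 3, 1054 without R1 day 0 replicate 1, 418 without R1 day 11 replicate 3, 150 and 108 without R1 day 0 replicates 3 and 2, 139 and 133 without R1 day 11 replicates 1 and 2, 148 and 101 without 3F day 0 replicates 1 and 3, and 117 without 3F day 11 replicate 1. The difference from 4F (1728 calls) gave 803 higher and 780 lower with median centring, 723 lower with cyclic loess, 773 lower with quantile normalization, 942 (731 and 211) at an adjusted p under 0.01, 2803 (2144 higher) without a minimum fold, 2606 (694 lower) with array weights, 246 (168 and 78) with the index covariate and 3517 (2111 and 1406) over all probe sets. Without single arrays it ran from 993, without 4F day 11 replicate 1, to 2508 (731 to 1899 higher, 262 to 609 lower). The causes of these moves were not tested. The labels pair no replicates, and same-numbered R1 arrays of day 11 and day 0 did not deviate together (r = -0.18, 0.21 and -0.07). With a replicate block 4301, 2131, 361 and 1838 genes were called in the 4 comparisons, and with a block and only the arrays compared 4270, 2092, 63 (41 and 22) and 1212. Of the named genes, Mesp1 turned to -0.38 with the index covariate. Myh6 ran from -0.17 to 2.05 without single arrays and Slc15a2 from -0.47 to 0.33, the opposite sign coming for Myh6 without R1 day 11 replicate 2 and for Slc15a2 without R1 day 0 replicate 2 or 3 or R1 day 11 replicate 3. Of these, only Myh6 was called under any of the single-array omissions, without R1 day 11 replicate 3. With only the arrays compared Myh7, Myl2 and Myl7 (adjusted p of 0.064 to 0.113) were not called, nor, against 3F, C1qb, Mpeg1, Ptprc and Trbv13-2 (0.0725 to 0.247). Acta2 (1.85) and Tagln (1.28) were called with the index covariate, Tagln also with cyclic loess (1.29) and quantile normalization (1.31) and Acta2 with averaged probe sets (1.01). Member counts also moved by over 1.5 times for G1 genes (4 rises with averaged probe sets), fatty acid oxidation (3 rises with median centring), calcium handling (2 rises and 2 falls with median centring), erythroid genes (4 rises at an adjusted p under 0.01) and IGF genes (7 rises with array weights). When a gene's probe sets were averaged, Cbx7, Cdkn1b, Vegfa, Pdk1, Hand1, Grb10, Bmpr1a, Smad3 and Cdh5 kept their sign but fell under 2-fold, as did Mcm6 with cyclic loess, and with the index covariate Hk2 (-0.96) and Msx1 (1.84, adjusted p = 0.0572) were not called. List medians changed sign with median centring for Polycomb, fatty acid oxidation, BMP, retinoic acid and calcium handling genes, each under 0.2 as deposited. Signals at the low end of the scale limit what can be seen: 14698 of 18193 genes passed the filter on dim genes.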
